A study of Oreochromis niloticus with 12 samples.

Results

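Chromatin and DNA methylation modifiers were examined in testis and ovary of Nile tilapia (Oreochromis niloticus). The members were all genes whose symbol begins with the name of a family from a set list: the DNA methyltransferases (dnmt), TET dioxygenases and UHRF proteins, the histone methyltransferases (kmt, setd, prmt), the Polycomb genes (ezh, suz12, eed, phc and the Polycomb cbx genes), the heterochromatin protein 1 genes (cbx1, cbx3, cbx5), the demethylases (kdm), acetyltransferases (kat) and deacetylases (hdac, sirt), the bromodomain genes (brd), and the remodellers (smarc, chd). The rule took 146 of 22283 annotated genes, and it used names only, not expression. The set held 27 histone methyltransferases, 23 deacetylases, 19 histone demethylases, 17 Polycomb genes, 16 smarc genes, 11 chd genes, 10 brd genes, 8 genes of DNA methylation, 8 acetyltransferases and 5 heterochromatin protein 1 genes. The other 2 members, uhrf1bp1 and uhrf1bp1l, are named for binding UHRF1 and are known as lipid transfer proteins, so they entered by their name alone. Of the members, 25 carried a symbol that the annotation marks as shared by several copies, and their reads and identity are less certain. Of the 146, 15 overlapped a gene on the opposite strand, and since the strand setting of the libraries is not given in the sources used here, their reads could not be told apart from those of that neighbour: dnmt3aa, suz12a, smarca5, smarcb1a, kat2b, brd9, hdac1 ENSONIG00000008187, KDM1B, kdm2aa, kdm6al, KMT2B, prmt7, prmt8b, prmt9 and SETD1B ENSONIG00000010832.

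The 12 libraries were made from total RNA of gonads at the end of a 150-day culture that began with 30 days in a small circulating system, with 3 libraries in each of 4 groups. Control testis and control ovary came from fish labelled control and described as sexually mature, and the other testis and ovary libraries came from fish labelled for suppression of SF1 (steroidogenic factor 1, gene nr5a1, a nuclear receptor that activates steroid synthesis genes). Antisense RNA fragments against SF1 had been given to the eggs before fertilisation. The labels describe eggs of control fish as given transfection reagent with ultrapure water or with a blank plasmid, and name several antisense fragments, without saying which of them a library came from, or whether a library came from 1 fish or from a pool. By these labels the eggs of all 4 groups received transfection reagent. The p-values below measure the spread between these libraries, which may be technical.

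Chromatin modifiers set which stretches of the genome can be read. DNA methyltransferases put methyl groups on cytosine, dnmt1 by copying the pattern onto a new strand with the help of uhrf1, and the dnmt3 enzymes by setting new marks. Histone methyltransferases of the kmt2 and setd1 kind mark active promoters and enhancers on the H3K4 residue of histone H3, while Polycomb repressive complex PRC2 (ezh1 or ezh2 with eed and suz12) marks the H3K27 residue, a mark that the Polycomb cbx proteins read within Polycomb repressive complex PRC1. Heterochromatin protein HP1 reads the H3K9 methyl mark of silent chromatin, demethylases and deacetylases remove marks, bromodomain proteins bind acetylated lysines, and SWI/SNF and CHD proteins move nucleosomes. In gonads these proteins are known for the remodelling of germ cell chromatin during spermatogenesis and for the store of maternal RNA in the egg, and teleost fish carry many of them as pairs of duplicated genes.

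Total counts ran from 36827789 to 60473895 per library. The SF1 transcript itself was measured first, as a check of the labels. It stood at 9.26, 11.8 and 17.9 FPKM (fragments per kilobase of transcript, scaled to the depth of the library) in control testis, at 23.7, 24.3 and 6.34 in testis labelled SF1-suppressed, at 1.37, 1.95 and 2.80 in control ovary and at 1.35, 2.95 and 1.73 in ovary labelled SF1-suppressed. In both tissues the groups overlapped, so RNA levels did not separate the labels, and the labels are used below as names only: suppressed-label testis and suppressed-label ovary. Replicate 3 of suppressed-label testis stood apart, with a biological coefficient of variation of 36.6% against replicate 1 and 33.9% against replicate 2, while those 2 differed by 14.9%. Oocyte markers (4 genes) summed to 1329 to 1478 FPKM in control ovary and 47.1 to 51.2 in control testis, and spermatid and sperm markers (4 genes) to 312 to 389 in control testis and 0.870 to 1.73 in control ovary. The sums went in the direction of the tissue labels, and 1 oocyte marker, figla, did not, at 42.9, 38.5 and 42.5 FPKM in control testis and 20.9, 21.1 and 21.3 in control ovary.

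Most members reached 1 FPKM in both tissues. The group mean reached 1 FPKM for 142 of 146 members in control testis and for 124 in control ovary, with 138 and 122 in the suppressed-label groups. The median member stood at 14.8 FPKM in control testis, 12.5 in suppressed-label testis, 8.75 in control ovary and 8.32 in suppressed-label ovary. Together the members took 1.40 to 1.47% of the counts of control testis libraries and 1.01 to 1.06% of those of control ovary. In testis the most abundant was cbx3a, a heterochromatin protein 1 gene, at 558, 540.5 and 578 FPKM in the control libraries. It was followed by prmt1, the main enzyme of asymmetric arginine methylation, at 255, 234 and 228 FPKM, and kat8, which acetylates histone H4, at 252, 234 and 203. In ovary a short row annotated as phc2b, a subunit of Polycomb complex PRC1, led at 683, 695 and 654 FPKM, followed by cbx5 at 302, 308 and 316. At the low end, dnmt3ab, tet3, kmt2a, KMT2B and 1 copy of PRMT8 were under the floor used for testing (1 FPKM in at least 3 libraries of a comparison) in every comparison, and their highest library values were 1.05, 0.920, 1.31, 2.08 and 0.324 FPKM.

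Testis and ovary were compared first, since most members differed between them. Of 141 members tested between control testis and control ovary, 126 (89.4%) passed an adjusted p of 0.05 (edgeR's quasi-likelihood test, adjusted over all genes), against 86.3% of all genes tested, so the share was close to the background. The direction was not: 89 members (63.1%) were higher in testis and 37 (26.2%) in ovary, while 44.1% of all genes were higher in testis and 42.3% in ovary. The median log2 difference, testis minus ovary, was 0.73 over the members and 0.048 over all genes. For 19 of the members tested the floor was met in every library of testis but not of ovary, which favours a call toward testis. Of the 119 members at 1 FPKM or more in every library of both tissues, 70 (58.8%) were higher in testis and 36 (30.3%) in ovary, and of the 10909 such genes in all 35.5% and 48.7%. Members were also longer than other genes (a median of 3.81 kb against 2.27 kb, implied by the ratio of counts to FPKM), and long genes leaned to testis. Over all genes the median log2 difference was 0.030 at 2 to 4 kb, 0.23 at 4 to 8 kb and 0.88 over 8 kb, and over the members it was 0.27, 1.14 and 0.84. The part of length in the tissue differences was not tested. Between the suppressed-label tissues, which share no library with the controls, 79 of 136 members were higher in testis and 40 in ovary. That was 87.5% called against 81.1% of all genes, of which 41.3% were higher in testis and 39.9% in ovary. Of the members higher in control testis, 78 of 89 were also higher in suppressed-label testis, and 34 of the 37 higher in control ovary were higher in suppressed-label ovary. This recurrence was not counted over all genes, of which 86.3% and 81.1% were called, so it does not set the members apart. A single member, kdm2aa, was called in opposite directions (log2 difference 0.27 and -0.22), and its second difference was as high as 0.14 when a suppressed-label testis library was left out. With library totals in place of TMM scaling 90 members were higher in control testis and 32 in control ovary. Over all genes 6982 were then higher in testis and 5693 in ovary, at a median log2 difference of 0.24. When 1 of the 6 control libraries was left out, the calls of kat2a, setd4, setd5, kat5b, smarcd1, cbx7a, kdm4c, SIRT6, chd1, setd7, smarcad1b and prmt5 were lost without a testis library and those of brd2b, HDAC7 ENSONIG00000009184, cbx2 ENSONIG00000009558, kdm2aa and brd2a without an ovary library. Of the 126 calls, 93 were kept in all 6 of these fits, and the rest of those not named here were not tested in some of them, since the floor must be met by 3 libraries. The edgeR differences rest on counts scaled by TMM (trimmed mean of M-values) and the FPKM on the authors' scaling, so the ratio of FPKM can differ from the fitted value. These are bulk tissues, in which fewer cells of a type and less RNA per cell cannot be told apart.

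**Figure D1:**
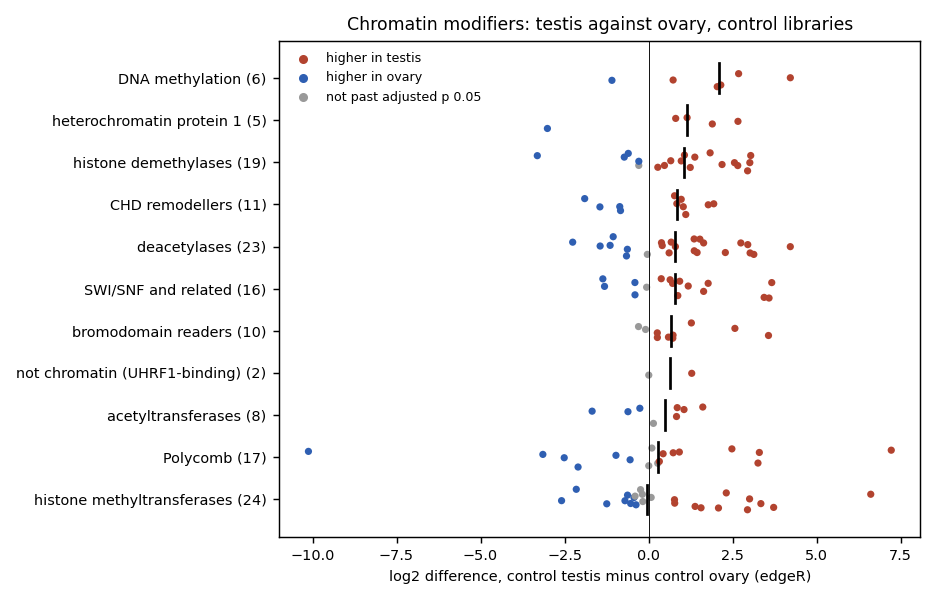
Each point is a member tested between the control tissues, placed by its log2 difference, control testis minus control ovary (edgeR), in rows by class with the number tested in brackets. Black bars are class medians, red points were higher in testis, blue in ovary, and grey did not pass adjusted p 0.05. Class medians run from -0.049 for histone methyltransferases to 2.10 for DNA methylation, and the point farthest left is the short phc2b row at -10.12.

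Among the genes of DNA methylation, 5 of 6 tested were higher in control testis and 1, dnmt1, in control ovary. Over all genes 44.1% were higher in testis and 42.3% in ovary. Of the 5, dnmt3bb.1 and dnmt3aa met the floor in testis only, which favours a call toward testis. The maintenance enzyme dnmt1 stood at 33.9, 37.3 and 37.4 FPKM in control testis and 70.1, 66.4 and 67.3 in control ovary. In the suppressed-label tissues it stood at 41.8, 37.4 and 30.5 in testis and 56.9, 63.6 and 62.0 in ovary. Every ovary library was above every testis library, with a control log2 difference, testis minus ovary, of -1.09 (SE 0.070, adjusted p = 3.81e-07). Its partner uhrf1 went the other way, at 11.1, 11.3 and 12.7 FPKM in control testis and 2.72, 2.41 and 2.37 in control ovary, a log2 difference of 2.04 (SE 0.11, adjusted p = 1.11e-07). The new-methylation enzyme dnmt3bb.1 stood at 7.56, 8.12 and 8.63 FPKM in control testis and 0.310, 0.390 and 0.441 in control ovary, a log2 difference of 4.22 (SE 0.15, adjusted p = 7.49e-09). In suppressed-label testis it stood at 4.76, 5.30 and 2.24 FPKM, so replicate 3 there was the lowest of the testis libraries, and in suppressed-label ovary at 0.485, 0.668 and 0.454. The related dnmt3aa was at 3.19, 4.12 and 3.86 FPKM in control testis and 0.492, 0.318 and 0.712 in control ovary, with a log2 difference of 2.68 (SE 0.31, adjusted p = 2.61e-05), and dnmt3ba differed by 0.73 on the log2 scale (SE 0.14, adjusted p = 0.000848). UHRF2, a relative of uhrf1, differed by 2.15 on the log2 scale (SE 0.18, adjusted p = 2.49e-06).

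The kmt2 and setd1 genes, which code for H3K4 methyltransferases and a relative of them (kmt2e), were higher in testis where they were tested. Of the 7 tested, kmt2cb and SETD1B ENSONIG00000010832 reached the floor in testis only, which favours a call toward testis, so their direction is given as a description. The other 5 were at 1 FPKM or more in every library. They passed toward testis in the control and the suppressed-label comparison, with all 3 scalings of the libraries (TMM, median of ratios and library totals). Of all genes at that level in both tissues, 35.5% passed toward testis in the control comparison and 35.1% in the suppressed-label one. The list was not among the set classes. The enhancer enzyme kmt2d, at GL831196.1, 1295144 to 1315027, stood at 15.9, 19.6 and 21.8 FPKM in control testis and 1.90, 1.38 and 1.69 in control ovary, with no overlap, and its log2 difference was 3.34 (SE 0.15, adjusted p = 2.59e-08). Its relative kmt2cb was at 2.53, 3.21 and 4.83 FPKM in testis and 0.124, 0.220 and 0.352 in ovary (log2 difference 3.72, SE 0.37, adjusted p = 8.12e-06). For kmt2e the log2 difference was 2.08 and for kmt2ba 0.78. The promoter enzymes setd1a and setd1ba stood 8.02-fold and 7.68-fold higher in control testis. The other setd1b row, SETD1B ENSONIG00000010832 (which overlaps hpdb on the opposite strand), was at 3.67, 3.92 and 3.84 FPKM in control testis and at 0.0001, 0.0133 and 0.0812 in control ovary, where 0.0001 is the value the authors list for a count of 0. All 3 suppressed-label ovary libraries had a count of 0 for it, against 1276 counts in suppressed-label testis, so that with a floor of 3 counts over the group it was at least 481-fold higher in suppressed-label testis.

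The remaining histone methyltransferases were divided between the tissues. In the class as a whole 11 of 24 tested (45.8%) were higher in control testis and 8 (33.3%) in control ovary. Over all genes these shares were 44.1% and 42.3%. Like kmt2cb and the SETD1B row, setd2 met the floor in testis only, which favours a call toward testis. Toward ovary went prmt6, an arginine methyltransferase of histone H3, which stood at 13.2, 11.1 and 9.84 FPKM in control testis and 64.4, 65.2 and 52.1 in control ovary, a log2 difference of -2.59 (SE 0.15, adjusted p = 1.76e-07). Its suppressed-label values, 10.7, 10.8 and 15.7 in testis and 72.6, 64.6 and 71.2 in ovary, were separated in the same way. The H4K20 enzyme setd8a was at 1.69, 2.65 and 2.78 FPKM in control testis and 8.59, 9.46 and 9.84 in control ovary (log2 difference -2.15, SE 0.17, adjusted p = 1.86e-06). The others higher in control ovary were setd3, known in mammals as an actin methyltransferase (log2 difference -1.25), prmt9 (log2 difference -0.70, a gene that overlaps tmem184c on the opposite strand), setd7 (log2 difference -0.63), prmt5, the symmetric arginine methyltransferase (log2 difference -0.53), setd5 (log2 difference -0.43) and setd4 (log2 difference -0.37). The difference of setd4 was as high as 0.018 when a testis library was left out. Toward testis went setd2, the H3K36 enzyme (log2 difference 2.31), prmt2 (log2 difference 1.56), prmt3 (log2 difference 1.38) and setdb1b, an H3K9 enzyme, which stood at 30.5, 31.3 and 30.1 FPKM in control testis and 16.2, 15.2 and 16.1 in control ovary (log2 difference 0.77, SE 0.070, adjusted p = 4.45e-06). The abundant prmt1 did not pass the test between control tissues, with 255, 234 and 228 FPKM in testis and 246, 237 and 238 in ovary (log2 difference -0.19, SE 0.087, adjusted p = 0.0708).

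Of the Polycomb class 8 of 17 tested (47.1%) were higher in control testis and 6 (35.3%) in control ovary. Over all genes these shares were 44.1% and 42.3%. The core of Polycomb complex PRC2 was not among the set classes, so its share is a description. Of its 5 genes 4 passed the test toward testis in the control comparison and 4 in the suppressed-label one. Over all genes 44.1% and 41.3% did. Of the 4, ezh1 met the floor in testis only, which favours a call toward testis. The methyltransferase ezh2, at GL831561.1, 92048 to 112561, stood at 53.9, 53.5 and 53.0 FPKM in control testis and 38.1, 36.8 and 38.4 in control ovary, a log2 difference of 0.32 (SE 0.070, adjusted p = 0.00195). In the suppressed-label tissues its values were 58.0, 53.3 and 55.7 in testis and 23.6, 26.3 and 25.4 in ovary, with a log2 difference of 1.03 (SE 0.093, adjusted p = 2.49e-05). Its relative ezh1 was lower in level but more divided, at 4.55, 6.23 and 7.33 FPKM in control testis and 1.27, 0.807 and 0.774 in control ovary (log2 difference 2.48, SE 0.26, adjusted p = 1.25e-05). The scaffold subunit eed stood at 35.2, 34.8 and 31.5 FPKM in control testis and 17.9, 18.4 and 17.7 in control ovary (log2 difference 0.73, SE 0.087, adjusted p = 3.09e-05). The gene suz12b stood at 19.9, 17.9 and 18.2 in testis and 8.84, 8.52 and 8.86 in ovary (log2 difference 0.91, SE 0.086, adjusted p = 5.57e-06). The other suz12 gene, suz12a, was at 18.3, 20.5 and 27.4 FPKM in control testis and 19.9, 16.9 and 21.3 in control ovary, values whose difference did not pass the test (log2 difference 0.0048, SE 0.14, adjusted p = 0.976).

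The subunits of Polycomb complex PRC1 were split between the gonads gene by gene. The reader cbx7b, at GL831136.1, 4992633 to 5007646, stood at 22.7, 22.8 and 22.4 FPKM in control testis and 0.0811, 0.107 and 0.201 in control ovary. In the suppressed-label tissues it stood at 13.0, 17.1 and 22.6 in testis and 0.124, 0.0665 and 0.0905 in ovary. It was near the bottom of the range in every ovary library, and its log2 difference of 7.22 (SE 0.24, adjusted p = 4.37e-09) was the largest fitted toward testis among the members in the control comparison. In ovary it was under the floor, as was phc3, and a floor met in testis only favours a call toward testis. CBX2 ENSONIG00000019084 stood at 38.7, 38.9 and 31.8 FPKM in control testis and 3.04, 3.01 and 4.06 in control ovary (log2 difference 3.25, SE 0.16, adjusted p = 6.93e-08). The gene phc3 stood at 1.42, 1.21 and 1.32 in testis and 0.0886, 0.123 and 0.138 in ovary (log2 difference 3.29, SE 0.28, adjusted p = 2.57e-06). Toward ovary went cbx8a, at 8.66, 7.94 and 9.38 FPKM in control testis and 65.9, 66.4 and 70.6 in control ovary (log2 difference -3.15, SE 0.10, adjusted p = 4.16e-09). The same held for PHC1, at 5.63, 5.44 and 5.50 in testis and 20.6, 21.6 and 20.4 FPKM in ovary (log2 difference -2.10, SE 0.076, adjusted p = 7.94e-09). In both the lowest ovary library was above the highest testis library.

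The widest difference of a member between the control tissues lay in phc2b, which the annotation places in 2 rows. The row ENSONIG00000005959 is short, at GL831228.1, 202442 to 203820, on the plus strand, and stood at 0.651, 0.781 and 0.580 FPKM in control testis and 683, 695 and 654 in control ovary. In the suppressed-label tissues it was at 2.62, 0.591 and 2.51 in testis and 720.4, 627 and 748 in ovary, where it was the most abundant member. The control log2 difference was -10.12 (SE 0.13, adjusted p = 2.52e-10). This row met the floor in ovary only, which favours a call toward ovary. The row ENSONIG00000014763, at GL831272.1, 1470996 to 1496034, stood at 8.95, 11.5 and 11.4 FPKM in control testis and 8.97, 8.33 and 8.99 in control ovary, with a difference that did not pass the test (log2 difference 0.097, SE 0.12, adjusted p = 0.473). Both rows carry the same symbol, and how reads were divided between them is not given in the sources used here.

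Heterochromatin protein 1 genes were also divided. The gene cbx5 stood at 39.3, 40.6 and 50.6 FPKM in control testis and 302, 308 and 316 in control ovary. In the suppressed-label tissues it stood at 48.9, 46.1 and 43.3 in testis and 237, 244 and 251 in ovary. All ovary libraries were above all testis libraries, with a control log2 difference of -3.01 (SE 0.098, adjusted p = 4.37e-09). The other 4 genes were higher in testis: cbx3a (558, 540.5 and 578 FPKM against 227, 224 and 218, log2 difference 1.15), cbx3b (log2 difference 1.90), and the cbx1b rows ENSONIG00000018212 (log2 difference 2.66) and ENSONIG00000006190 (log2 difference 0.81). The largest adjusted p among these 5 genes was 0.000171.

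Histone demethylases leaned to testis, with 14 of 19 (73.7%) higher in control testis and 4 (21.1%) in control ovary. Over all genes these shares were 44.1% and 42.3%. The median log2 difference was 1.07 over the class and 0.048 over all genes. The gene kdm2bb met the floor in testis only, which favours a call toward testis. The exception with the widest gap was KDM1B, an H3K4 demethylase known in mouse for its need in oocytes. It stood at 7.57, 9.24 and 8.44 FPKM in control testis and 76.7, 71.9 and 72.7 in control ovary. In the suppressed-label tissues it stood at 9.58, 9.89 and 6.52 in testis and 82.1, 82.9 and 79.3 in ovary, a control log2 difference of -3.31 (SE 0.088, adjusted p = 1.4e-09). KDM1B, at GL831186.1, 3749606 to 3763333, overlaps CFAP69 on the opposite strand. Its relative kdm1a went the other way, at 29.0, 27.4 and 25.4 FPKM in control testis and 17.2, 17.2 and 17.7 in control ovary (log2 difference 0.47, SE 0.081, adjusted p = 0.000416). The H3K4 demethylase kdm5bb stood at 42.7, 40.8 and 41.6 FPKM in control testis and 4.37, 4.28 and 5.03 in control ovary (log2 difference 3.01, SE 0.091, adjusted p = 2.81e-09), and kdm2bb, KDM4A ENSONIG00000007297, kdm5c and kdm2ab had log2 differences of 3.04, 2.94, 2.65 and 2.56 toward testis. The H3K27 demethylases kdm6a and kdm6al were 2.36-fold and 3.56-fold higher in control testis. Besides KDM1B, kdm2ba (log2 difference -0.72), KDM5A (log2 difference -0.61) and kdm4c (log2 difference -0.29) were higher in control ovary, although the value of kdm4c was as high as 0.034 when a testis library was left out.

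Of the acetyltransferases 4 of 8 (50.0%) were higher in control testis and 3 (37.5%) in control ovary. These shares were close to the 44.1% and 42.3% of all genes. Toward testis were kat6a (14.6, 16.9 and 19.9 FPKM against 4.65, 4.63 and 5.53, log2 difference 1.61), kat8 (252, 234 and 203 against 100.1, 97.1 and 96.3, log2 difference 1.05), kat7b (65.8, 65.1 and 62.6 against 31.1, 32.8 and 30.7, log2 difference 0.85) and kat7a (log2 difference 0.83). Toward ovary was kat2b, a coactivator enzyme, at 3.11, 3.45 and 3.24 FPKM in testis and 9.66, 8.60 and 9.46 in ovary (log2 difference -1.68, SE 0.092, adjusted p = 1.24e-07). Its relative kat2a differed by -0.61 on the log2 scale and kat5b by -0.26 on the log2 scale, and the value of kat5b was as high as 0.12 when a testis library was left out. The deacetylases had 16 of 23 genes (69.6%) higher in control testis and 6 (26.1%) in ovary, against the same shares of all genes. Of the 16, hdac5, hdac7b, hdac9b and HDAC4 ENSONIG00000000966 met the floor in testis only, which favours a call toward testis.

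Among the zinc-dependent deacetylases the 3 genes that were higher in ovary, hdac3, HDAC2 and hdac1 ENSONIG00000007720, were all of class I. Class I was split, since hdac1 ENSONIG00000008187 (log2 difference 0.67) and the hdac8 rows (log2 differences 2.95 and 1.64) were higher in testis. The gene hdac3 stood at 21.8, 19.8 and 19.5 FPKM in control testis and 40.6, 39.0 and 39.7 in control ovary (log2 difference -1.15, SE 0.093, adjusted p = 2e-06), and HDAC2 differed by -0.63 on the log2 scale. For hdac8, rows ENSONIG00000011850 and ENSONIG00000011883 lie on the same scaffold (GL831391.1, 7242 to 46994 and 566320 to 602683), and the former stood at 72.1, 72.5 and 70.5 FPKM in control testis and 7.32, 8.96 and 8.26 in ovary (log2 difference 2.95, SE 0.093, adjusted p = 3.52e-09). The class IIa gene hdac5, which met the floor in testis only, was at 3.91, 3.79 and 4.86 FPKM in control testis and 0.212, 0.104 and 0.269 in control ovary (log2 difference 4.22, SE 0.33, adjusted p = 1.47e-06). The tubulin deacetylase hdac6 was at 39.2, 40.3 and 40.4 in testis and 5.01, 3.63 and 4.39 FPKM in ovary (log2 difference 3.02, SE 0.12, adjusted p = 1.47e-08), and hdac10 differed by 2.28 on the log2 scale. Of the sirtuins, which use NAD, 5 of 8 were higher in control testis and 3 in control ovary, against 44.1% and 42.3% of all genes. The sirtuin sirt4 differed by 2.74 on the log2 scale and sirt1, a nuclear enzyme, by 0.38. The mitochondrial sirt3 differed by -1.44 on the log2 scale and SIRT6 by -0.66.

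The nucleosome remodellers and acetyl-lysine readers were mostly higher in testis, with 11 of 16 smarc genes, 7 of 11 chd genes and 8 of 10 brd genes, against 4 smarc and 4 chd genes higher in ovary. The ATPase smarca2 stood at 39.1, 43.8 and 44.0 FPKM in control testis and 3.08, 2.07 and 3.65 in control ovary (log2 difference 3.66, SE 0.19, adjusted p = 7.58e-08), and the SWI/SNF subunit smarcd2 at 57.2, 59.4 and 56.8 in testis and 4.16, 4.78 and 3.82 FPKM in ovary (log2 difference 3.58, SE 0.098, adjusted p = 1.59e-09). The subunit smarcc2 was low in both, at 2.85, 2.20 and 3.29 in testis and 0.215, 0.121 and 0.331 FPKM in ovary (log2 difference 3.44, SE 0.38, adjusted p = 1.78e-05). The alternative ATPase smarca4a was at 70.7, 70.8 and 74.3 FPKM in control testis and 34.7, 28.8 and 36.7 in control ovary (log2 difference 0.92, SE 0.10, adjusted p = 1.53e-05). Toward ovary was smarcal1, a replication fork helicase and not a SWI/SNF subunit, at 36.8, 36.8 and 35.8 in testis and 90.4, 77.2 and 80.4 FPKM in ovary (log2 difference -1.36, SE 0.084, adjusted p = 2.73e-07). Among the chd genes chd4a, the NuRD ATPase, stood at 75.4, 76.0 and 77.1 FPKM in control testis and 29.8, 29.4 and 34.5 in ovary (log2 difference 1.11), chd4b differed by 0.97 on the log2 scale and chd7 by 0.77, while chd9 (log2 difference -1.90), chd8 (log2 difference -1.45), chd1l (log2 difference -0.86) and chd1 (log2 difference -0.84) were higher in ovary. Of the brd genes, brd1a differed by 2.57 on the log2 scale.

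Further copies and relatives of these genes were measured in the control tissues. The other SWI/SNF ATPase copy, SMARCA4 ENSONIG00000018040, stood at 2.84, 3.53 and 4.47 FPKM in control testis and 1.30, 0.747 and 1.02 in control ovary (log2 difference 1.64, SE 0.24, adjusted p = 0.000155). The other NuRD ATPase chd4b was at 19.5, 21.1 and 21.4 FPKM in control testis and 8.999, 9.21 and 9.69 in control ovary, and chd7, which binds enhancers, at 3.20, 4.04 and 4.42 FPKM in control testis and 2.32, 1.62 and 2.08 in control ovary. Both were higher in every testis library than in any ovary library. The remodellers chd8 and chd9 were the reverse, chd8 at 9.41, 12.02 and 12.2 FPKM in control testis and 28.9, 23.6 and 28.3 in control ovary and chd9 at 3.44, 3.86 and 4.13 FPKM in control testis and 13.8, 11.2 and 12.6 in control ovary. Among the heterochromatin protein 1 genes cbx3b stood at 15.8, 12.7 and 12.5 FPKM in control testis and 3.56, 2.30 and 3.85 in control ovary. The cbx1b row ENSONIG00000018212 was at 28.7, 24.4 and 24.5 FPKM in control testis and 3.44, 3.84 and 3.56 in control ovary, and the row ENSONIG00000006190 at 80.9, 94.7 and 98.5 FPKM in control testis and 49.6, 40.5 and 47.9 in control ovary, so the former was the scarcer in ovary. The acetyltransferase kat5b, of the NuA4 complex, overlapped between the tissues in FPKM, at 23.8, 28.2 and 30.4 FPKM in control testis and 30.8, 27.6 and 28.4 in control ovary. The new-methylation enzyme dnmt3ba was at 4.40, 4.90 and 5.66 FPKM in control testis and 2.88, 2.57 and 2.48 in control ovary, a smaller gap than that of dnmt3bb.1. SMARCE1 ENSONIG00000009004, an HMG-box subunit of SWI/SNF, stood at 28.4, 26.5 and 26.3 FPKM in control testis and 13.7, 12.5 and 13.0 in control ovary.

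The testes of the 2 labels were compared next, a comparison that addresses the testis after the SF1 antisense treatment. Of 138 members tested, 13 (9.42%) passed, against 10.9% of all genes, so the members did not stand out by their share. Lower in suppressed-label testis were 10 members (7.25% against 5.68% of all genes) and higher were 3 (2.17% against 5.25%). With library totals in place of TMM scaling the split was 15 lower and 1 higher. Over all genes 1183 were then lower and 554 higher, at a median log2 change of -0.12. The median log2 change was -0.063 over the members and 0.00056 over all genes. In FPKM the groups did not overlap for 66 members (47.8%, against 39.0% of all genes), 55 of them lower in suppressed-label testis and 11 higher, against 26.4% and 12.5% of all genes. Leaving out replicate 3 of suppressed-label testis gave 24 lower and 5 higher, or 21.0% of the members tested, and 19.7% of all genes in that fit.

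Cell type markers moved with this comparison as well. Leydig cell markers (3 genes) summed to 333, 373 and 471 FPKM in control testis and 1332, 1289 and 521 in suppressed-label testis, stroma and smooth muscle markers (2 genes) to 487, 608 and 795 FPKM in control and 2044, 1573 and 399.5 in suppressed-label libraries, and meiosis markers (4 genes) to 1535, 1378 and 1247 FPKM in control and 1600.2, 1599 and 2762 in suppressed-label libraries. Germ line markers (6 genes) summed to 1608 to 1747 FPKM in control and 2087 to 2289 in suppressed-label testis, and proliferation markers (8 genes) to 1008 to 1171 in control and 1296 to 1422 in suppressed-label testis. Sertoli cell markers (5 genes) summed to 1127, 1133 and 1181 FPKM in control and 1768, 1598 and 838 in suppressed-label testis, and spermatid and sperm markers to 389, 356 and 312 in control and 293, 333 and 449 in suppressed-label testis. Within these lists genes went different ways. Of the Sertoli markers clu went from 224 to 255 FPKM in control down to 23.8 to 30.7, sox9a went from 2.46 to 2.72 up to 9.49 to 12.2, and gsdf was at 431 to 463 in control and 1280.3, 1132 and 440.0 in suppressed-label testis. Of the germ line markers NANOS2 went from 11.3 to 14.9 FPKM down to 4.38 to 7.10. The marker dnd1 went from 38.1 to 49.6 FPKM down to 22.4 to 25.7. Among the proliferation markers top2a went from 194 to 199 FPKM down to 162 to 179, cdk1 overlapped, and the others were higher. Among the spermatid and sperm markers dnah1 went from 7.99 to 8.82 FPKM up to 22.1 to 24.9, and the others overlapped. The erythrocyte marker alas2 stood at 4.74 to 10.6 FPKM in control and 1.99 to 2.94 in suppressed-label testis. None of these markers was at 0 in any testis library. Replicate 3 of suppressed-label testis had less Leydig, Sertoli and stroma signal and more meiosis signal than replicates 1 and 2. Their part in the changes of the members was not tested.

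The tested member with the largest fall was cbx7a, a Polycomb reader at GL831154.1, 2813005 to 2819124. It stood at 11.2, 12.5 and 14.4 FPKM in the control testis libraries and 5.43, 5.97 and 3.41 in the suppressed-label ones. The groups were well apart, with the lowest value in replicate 3, and the change of -1.26 on the log2 scale (SE 0.19, adjusted p = 0.00698) was a 2.39-fold fall. Other Polycomb genes that fell were phc3, at 1.42, 1.21 and 1.32 FPKM in control and 0.650, 0.627 and 0.723 in suppressed-label testis (log2 change -0.86, SE 0.21, adjusted p = 0.0364), and suz12b, at 19.9, 17.9 and 18.2 FPKM in control and 13.3, 14.1 and 11.8 in suppressed-label libraries (log2 change -0.40, SE 0.10, adjusted p = 0.0427). For phc3, which was close to the floor of 1 FPKM, the fit was not possible when any control library was left out, since that floor must be met by 3 libraries. Without a call were ezh2 (53.9, 53.5 and 53.0 FPKM against 58.0, 53.3 and 55.7, log2 change 0.17), eed (log2 change 0.11), ezh1 (log2 change -0.77) and suz12a (log2 change -0.46).

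Of the kmt2 and setd1 enzymes, 3 of 7 tested fell in suppressed-label testis, against 5.68% of all genes. The median log2 change was -0.78 over the list. This list was not among the set classes and was cut with earlier results of these data known, so its share is a description. The list is a part of the histone methyltransferase class, in which 3 of 22 tested fell and 1 rose. The median log2 change of the class was -0.044. Of all kmt and setd genes 3 of 15 tested fell. The enhancer enzyme kmt2d stood at 15.9, 19.6 and 21.8 FPKM in control testis and 9.68, 10.1 and 9.67 in suppressed-label testis. All 3 suppressed-label libraries were close together and below all controls, a log2 change of -0.84 (SE 0.12, adjusted p = 0.00574). The SETD1B row ENSONIG00000010832 was at 3.67, 3.92 and 3.84 FPKM in control and 1.67, 1.82 and 1.07 in suppressed-label libraries (log2 change -1.22, SE 0.19, adjusted p = 0.00798), again with replicate 3 lowest. For kmt2cb the values were 2.53, 3.21 and 4.83 FPKM in control and 1.59, 1.96 and 1.42 in suppressed-label libraries (log2 change -0.97, SE 0.22, adjusted p = 0.0313). The remaining 4 were not called, namely setd1a (log2 change -0.78), kmt2e (log2 change -0.27), kmt2ba (log2 change -0.086) and setd1ba (log2 change 0.096).

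Among the other members that fell was kdm7ab, a JmjC demethylase (20.6, 21.8 and 20.0 FPKM in control and 13.4, 12.9 and 10.6 in suppressed-label testis, log2 change -0.65, SE 0.11, adjusted p = 0.0118). The gene brd1a, a scaffold of acetyltransferase complexes, fell (22.6, 22.0 and 24.5 FPKM in control and 15.8, 15.9 and 12.5 in suppressed-label libraries, log2 change -0.53, SE 0.10, adjusted p = 0.0182). The SWI/SNF ATPase smarca4a fell (70.7, 70.8 and 74.3 FPKM in control and 55.0, 53.6 and 47.6 in suppressed-label libraries, log2 change -0.35, SE 0.093, adjusted p = 0.0493). The lipid transfer gene uhrf1bp1, a member by name only, fell as well (8.51, 11.4 and 11.4 FPKM in control and 6.50, 5.58 and 4.44 in suppressed-label libraries, log2 change -0.81, SE 0.16, adjusted p = 0.02). In all 4 the highest suppressed-label library was below the lowest control. Of the 3 that rose, kdm8, a JmjC-domain protein, went from 10.8, 10.8 and 12.3 to 14.2, 16.3 and 19.7 FPKM (log2 change 0.69, SE 0.18, adjusted p = 0.0469). The arginine methyltransferase prmt1 rose from 255, 234 and 228 to 319, 301 and 338 (log2 change 0.54, SE 0.12, adjusted p = 0.0329). The DNA methylation partner uhrf1 rose from 11.1, 11.3 and 12.7 to 14.1, 15.3 and 13.6 (log2 change 0.41, SE 0.097, adjusted p = 0.0347). No acetyltransferase, deacetylase, heterochromatin protein 1 gene or chd gene passed the test in testis, although 11 of 23 deacetylases, 4 of 8 acetyltransferases, 1 of 5 heterochromatin protein 1 genes and 3 of 11 chd genes had an unadjusted p under 0.05 in edgeR. In the same order of classes DESeq2 called 8, 1, 0 and 1 genes, and limma on log2(FPKM + 1) called 2, 0, 0 and 0. Over all genes 4217 of 14368 had an unadjusted p under 0.05 in edgeR, and DESeq2 and limma called 20.1% and 12.9%.

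Few of the testis calls held when a library was left out, and calls over all genes moved with them. Leaving out control replicate 1, 2 or 3 gave 5, 2 and 4 called members, shares of 3.65%, 1.46% and 2.92% where all genes had 3.19%, 2.24% and 3.07%. Leaving out suppressed-label replicate 1, 2 or 3 gave 9, 3 and 29, shares of 6.52%, 2.17% and 21.0% where all genes had 7.48%, 4.34% and 19.7%. The falls of cbx7a and kmt2d passed in all 6 of these fits, with a highest adjusted p of 0.0459 and 0.0451. The fall of the SETD1B row was lost without control replicate 2 (adjusted p = 0.0613), and that of phc3 was lost without suppressed-label replicate 1 or 2 and was not tested without a control library. Each of the other 9 calls was lost in at least 3 of the 6 fits, with a highest adjusted p from 0.0825 to 0.207.

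**Figure D2:**
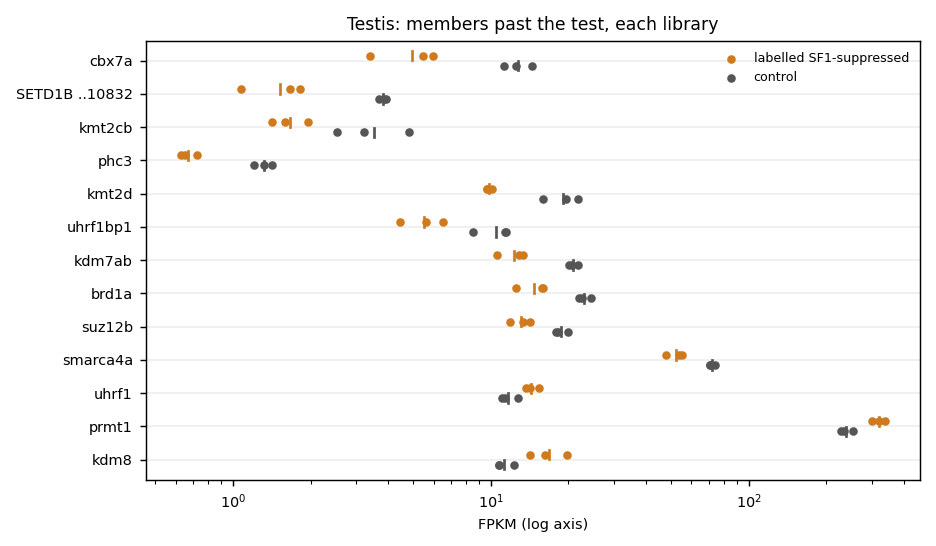
FPKM on a log axis in each testis library for the 13 members past the test, with control libraries in grey, libraries labelled SF1-suppressed in orange and group means as vertical bars. In the 10 rows that fell, from cbx7a to smarca4a, each orange point lies left of each grey point, and in the rows of uhrf1, prmt1 and kdm8 each lies right.

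The testis change of members went with the length of their transcripts. Members over 8 kb (15 genes) had a median log2 change of -0.48, those of 4 to 8 kb (50 genes) -0.22, those of 2 to 4 kb (44 genes) -0.0080 and those of 1 to 2 kb (25 genes) 0.099. Over all genes tested the medians for the same bins were -0.19, -0.045, 0.0021 and 0.012, so the medians of the members spanned a wider range. As a description, Spearman's rho between length and testis change was -0.38 over the 138 members, which share the same 6 libraries, and -0.13 over 14360 genes. The falling kmt2d and kmt2cb, with implied lengths of 12.7 and 12.8 kb, were among the members over 8 kb. The part of length in these changes was not tested.

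**Figure D3:**
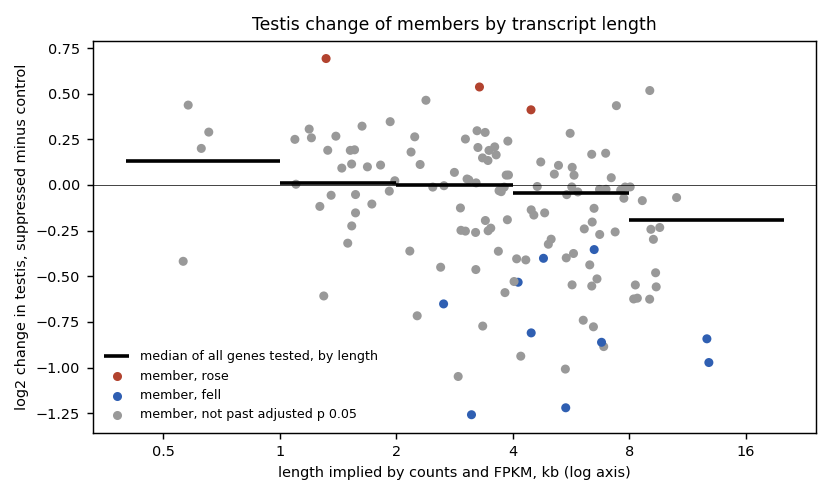
Each point is a member tested in testis, placed by the length implied from counts and FPKM (kb, log axis) and its log2 change, suppressed-label minus control (edgeR). Red rose, blue fell, grey did not pass adjusted p 0.05, and black bars are medians of all genes tested in each length bin. The bars step down from 0.13 under 1 kb to -0.19 over 8 kb, and the members over 8 kb lie mostly below them.

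The ovaries of the 2 labels differed in more members, as they did in more genes. Of 123 members tested 32 (26.0%) passed, which is below the 35.9% of all genes. They were 18 that rose (14.6% against 18.1% of all genes) and 14 that fell (11.4% against 17.9%). With library totals in place of TMM scaling 13 rose and 29 fell, or 34.1% called against 37.5% of all genes. All genes leaned the same way in that fit, with 1699 that rose, 3014 that fell and a median log2 change of -0.077. In FPKM the groups did not overlap for 52 members (42.3%, against 50.0% of all genes). Most changes were small: 30 of the 32 called members changed by less than 2-fold. Beside them, oocyte markers (4 genes) summed to 1329 to 1478 FPKM in control ovary and 1726 to 1733 in suppressed-label ovary, germ line markers (6 genes, of which NANOS2 was at a count of 0 in 5 of the 6 ovary libraries) to 661 to 668 and 931 to 935, granulosa markers (2 genes) to 75.6 to 121 and 60.4 to 85.2, and stroma markers (2 genes) to 363 to 419.6 and 636 to 676. The germ line marker ddx4 alone went from 147 to 153 up to 367 to 371 FPKM. Meiosis markers (4 genes) summed to 42.4 to 47.7 FPKM in control and 37.5 to 40.3 in suppressed-label ovary. Within this list dmc1, at 11.7 to 12.4 and 4.89 to 6.43, and sycp3 were lower. The marker spo11 was higher, at 22.8 to 26.8 in control and 27.5 to 31.0 in suppressed-label ovary, and rec8b overlapped. Leydig markers (3 genes) summed to 30.2 to 36.5 and 18.03 to 29.4, and alas2 stood at 0.504 to 1.37 and 0.145 to 0.381. The sums of proliferation, Sertoli, leukocyte and spermatid and sperm markers overlapped between the ovary groups. Within the proliferation list genes separated in opposite directions. The marker rrm1 went from 69.4 to 71.2 up to 103 to 108 FPKM, and pcna, mcm2, mcm5 and cdk1 were also higher. The marker top2a went from 36.3 to 41.5 down to 31.9 to 33.2 FPKM, and the RRM2 rows were also lower. Of the Sertoli markers amh and dmrt1 were higher, while sox9a, clu and gsdf overlapped. The part of all these markers in the changes of the members was not tested.

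Of the genes with kmt and setd names, 6 of 12 tested rose in suppressed-label ovary, against 18.1% of all genes. The median log2 change was 0.18 against -0.0049 over all genes. With library totals in place of TMM 5 of the 12 rose, against 1699 of 12557 genes. This list, too, was not among the set classes and was cut with earlier results known, so its share is a description. The list is a part of the histone methyltransferase class, in which 7 of 20 tested rose and 1 fell. Of the kmt2 and setd1 genes, the list used in testis, 1 of 5 tested rose in ovary. The H3K4 enzyme setd1ba, at GL831275.1, 884404 to 895458, stood at 1.74, 1.91 and 2.35 FPKM in control ovary and 4.35, 5.31 and 4.84 in suppressed-label ovary. The groups were far apart, and the rise of 1.34 on the log2 scale (SE 0.13, adjusted p = 4.46e-05), or 2.54-fold, was the largest among members tested in ovary. Its values in testis were 16.8, 18.5 and 17.1 FPKM in control and 17.4, 18.3 and 16.1 in suppressed-label libraries. The other setd1b row, SETD1B ENSONIG00000010832, was too low in ovary to be tested, with 0, 4 and 26 counts in the control libraries and 0 in all 3 suppressed-label ones, so that the groups overlapped at 0. The lysine methyltransferase setd7 stood at 11.1, 10.1 and 10.2 FPKM in control and 15.0, 15.6 and 16.2 in suppressed-label libraries (log2 change 0.65, SE 0.074, adjusted p = 0.00011). The gene setd6, which in mammals methylates a subunit of NF-kB, stood at 24.5, 26.4 and 23.7 FPKM in control and 36.9, 36.8 and 34.4 in suppressed-label libraries (log2 change 0.61, SE 0.074, adjusted p = 0.000175). Smaller rises were those of setd4 (log2 change 0.30), setdb1b (log2 change 0.30) and setd3 (log2 change 0.23).

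Of the arginine methyltransferases, prmt9 fell, from 27.0, 27.6 and 25.04 FPKM in control ovary to 19.2, 19.1 and 18.9 (log2 change -0.41, SE 0.057, adjusted p = 0.000394). The symmetric enzyme prmt5 rose (from 104, 101 and 99.8 FPKM in control to 112, 115 and 112 in suppressed-label ovary, log2 change 0.23, SE 0.046, adjusted p = 0.00382). In the Polycomb group ezh2 fell, from 38.1, 36.8 and 38.4 to 23.6, 26.3 and 25.4 FPKM. All suppressed-label libraries were below all controls, and the log2 scale gave a change of -0.52 (SE 0.053, adjusted p = 4.83e-05). Its partner eed fell from 17.9, 18.4 and 17.7 to 13.9, 14.3 and 14.2 (log2 change -0.28, SE 0.070, adjusted p = 0.0123), while suz12a (log2 change -0.26), suz12b (log2 change -0.050) and ezh1 (log2 change -0.00046) did not pass. The reader cbx7a rose, from 15.96, 16.7 and 16.6 to 18.7, 19.4 and 20.0 FPKM (log2 change 0.31, SE 0.063, adjusted p = 0.00385). A rise was also seen in the longer phc2b row ENSONIG00000014763, from 8.97, 8.33 and 8.99 to 9.75, 10.3 and 11.8 (log2 change 0.35, SE 0.098, adjusted p = 0.0194). Of the heterochromatin protein 1 genes, cbx5 fell (from 302, 308 and 316 FPKM in control to 237, 244 and 251 in suppressed-label ovary, log2 change -0.27, SE 0.049, adjusted p = 0.00216) and cbx3a rose (from 227, 224 and 218 FPKM in control to 252, 240.5 and 246 in suppressed-label ovary, log2 change 0.21, SE 0.051, adjusted p = 0.00918).

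The deacetylases changed in 3 of 19 genes tested (15.8%), below the 35.9% of all genes. The class IV gene hdac11, at GL831180.1, 2847681 to 2903046, stood at 2.23, 4.03 and 2.85 FPKM in control ovary and 1.04, 0.961 and 0.848 in suppressed-label ovary, and its log2 change of -1.60 (SE 0.29, adjusted p = 0.00186) was the largest fall among members tested in ovary. Its suppressed-label levels were around the floor of 1 FPKM. SIRT5 ENSONIG00000009653, a mitochondrial deacylase, rose from 27.4, 27.8 and 25.4 to 40.0, 40.8 and 44.9 FPKM (log2 change 0.71, SE 0.070, adjusted p = 3.94e-05). SIRT6, a nuclear sirtuin, rose from 11.2, 9.90 and 10.7 to 15.8, 15.1 and 15.8 (log2 change 0.62, SE 0.10, adjusted p = 0.00112). Among the acetyltransferases kat2a fell from 8.06, 6.32 and 6.25 to 4.79, 3.76 and 4.33 FPKM (log2 change -0.61, SE 0.13, adjusted p = 0.00453). The gene kat7a fell from 2.65, 3.27 and 2.67 to 2.24, 1.98 and 1.95 (log2 change -0.41, SE 0.12, adjusted p = 0.0281), while kat8 rose (log2 change 0.19, SE 0.050, adjusted p = 0.0145).

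Demethylases went both ways in the ovary, with 3 that rose and 3 that fell of 18 tested. Each was 16.7%, close to the 18.1% of all genes that rose and the 17.9% that fell. The H3K36 demethylase gene kdm2aa rose from 19.0, 16.2 and 20.2 FPKM in control ovary to 27.4, 30.1 and 29.6 (log2 change 0.72, SE 0.082, adjusted p = 0.000109). Its duplicate kdm2ab fell from 5.00, 4.70 and 5.23 to 3.14, 4.06 and 3.56 (log2 change -0.40, SE 0.12, adjusted p = 0.0231). The former overlaps spcs3 on the opposite strand. Also higher were kdm8 (from 14.2, 11.2 and 11.2 FPKM in control to 15.3, 15.6 and 13.9 in suppressed-label ovary, log2 change 0.36, SE 0.12, adjusted p = 0.0447) and KDM1B (log2 change 0.21), and lower were kdm7ab (from 3.74, 3.92 and 4.42 FPKM in control to 2.42, 3.27 and 2.69 in suppressed-label ovary, log2 change -0.46, SE 0.16, adjusted p = 0.0465) and kdm4c (log2 change -0.22). In the remaining classes chd1 (from 7.81, 7.75 and 8.02 FPKM in control to 5.09, 6.41 and 5.97 in suppressed-label ovary, log2 change -0.36), chd9 (log2 change -0.25), brd1b (from 21.9, 18.3 and 21.0 FPKM in control to 13.5, 17.2 and 15.0 in suppressed-label ovary, log2 change -0.35) and smarcad1b (log2 change -0.30) fell, and smarce1 ENSONIG00000006293 (from 31.5, 32.5 and 34.2 FPKM in control to 38.9, 40.3 and 40.6 in suppressed-label ovary, log2 change 0.36) and uhrf1 (from 2.72, 2.41 and 2.37 FPKM in control to 3.19, 2.92 and 3.54 in suppressed-label ovary, log2 change 0.43, SE 0.13, adjusted p = 0.0266) rose. The FPKM values of kdm8 overlapped between the ovary groups. The methyltransferase dnmt1, at 70.1, 66.4 and 67.3 FPKM in control and 56.9, 63.6 and 62.0 in suppressed-label libraries, did not pass (log2 change -0.089, SE 0.054, adjusted p = 0.232).

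Of the 32 calls 20 were kept when any 1 of the 6 libraries was left out, among them setd1ba, setd7, setd6, kdm2aa, SIRT5 ENSONIG00000009653, SIRT6, ezh2, prmt9, hdac11, kat2a, cbx7a and cbx5. The other 12, kdm7ab, kdm8, setd4, chd9, brd1b, kdm2ab, kat7a, eed, kdm4c, kat8, uhrf1 and phc2b ENSONIG00000014763, were lost in at least 2 of the 6 fits, with a highest adjusted p from 0.0532 to 0.173. Leaving out control replicate 1, 2 or 3 gave 33, 31 and 26 called members, and leaving out suppressed-label replicate 1, 2 or 3 gave 23, 36 and 20. The shares ran from 16.3% to 29.5% of the members tested, and from 25.5% to 33.2% of all genes.

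**Figure D4:**
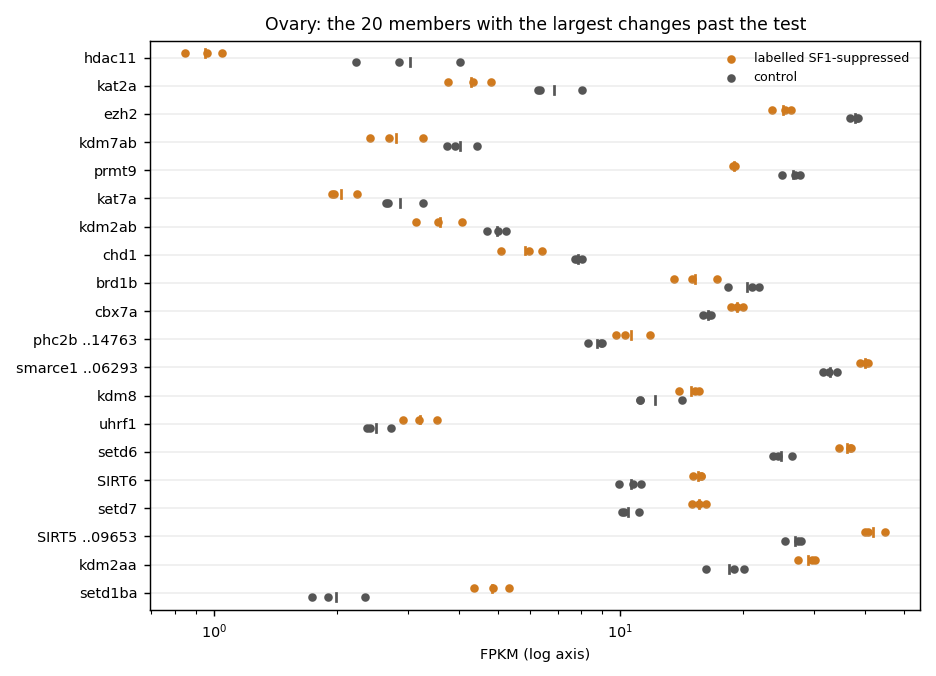
FPKM on a log axis in each ovary library for the 20 called members with the largest log2 changes, with control libraries in grey, libraries labelled SF1-suppressed in orange and group means as vertical bars. Names ending in digits give the last digits of the gene identifier. From hdac11 to brd1b the orange points lie to the left, and from cbx7a to setd1ba to the right, the groups of kdm8 overlapping, with the widest gaps for hdac11 (-1.60 on the log2 scale) and setd1ba (1.34).

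The changes in testis and ovary were then set against each other. The testis and ovary comparisons share no library. Of the 13 members called in testis 3 were called in the same direction in ovary (uhrf1 and kdm8 rose in both, kdm7ab fell in both), 1, cbx7a, was called in the opposite direction, and 3 were not tested in ovary. The difference itself, the testis change minus the ovary change, was tested over all 12 libraries. It passed for 15 of 141 members (10.6%), against 15.5% of all genes. With the testis change more negative than the ovary change were 10 members (background 8.15% of all genes), and 5 had the reverse (background 7.33%). The gene cbx7a fell by 1.26 on the log2 scale in testis and rose by 0.31 in ovary, a difference of -1.60 (SE 0.20, adjusted p = 0.000259). For ezh2 the log2 changes were 0.17, not called, in testis and -0.52 in ovary, a difference of 0.66 (SE 0.11, adjusted p = 0.00197). For setd1ba the log2 changes were 0.096, not called, and 1.34, a difference of -1.28 (SE 0.16, adjusted p = 0.000214), and for setd7 -0.26, not called, and 0.65, a difference of -0.94 (SE 0.21, adjusted p = 0.00957). For kmt2d the log2 changes were -0.84 and, not called, -0.066, a difference of -0.81 (SE 0.20, adjusted p = 0.0157). The remodeller chd5, known in mouse for its need in the packaging of sperm chromatin, stood at 1.28, 1.07 and 1.49 FPKM in control testis and 1.47, 1.86 and 1.74 in suppressed-label testis, and at 0.688, 0.464 and 0.731 in control ovary and 0.224, 0.131 and 0.181 in suppressed-label ovary. Its log2 change in testis was 0.52, not called, and in ovary it was under the floor for a test of its own, with a fitted testis change minus ovary change of 2.22 (SE 0.36, adjusted p = 0.00131). The deacetylase sirt1 stood at 46.6, 47.1 and 49.8 FPKM in control testis and 40.6, 32.5 and 30.2 in suppressed-label testis, and at 34.6, 32.4 and 30.0 in control ovary and 34.9, 34.6 and 35.03 in suppressed-label ovary. Neither log2 change was called alone (-0.36 in testis, 0.18 in ovary), with a difference of changes of -0.58 (SE 0.14, adjusted p = 0.0158).

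Duplicated genes often had tissue differences of unequal size, and some went opposite ways. Pairs were formed by symbol after the values had been seen, which gave 32 pairs, and they are described without a test of their own. Between control tissues both copies passed in the same direction in 18 pairs and in opposite directions in 5, and in 9 at least 1 copy was not called. Between suppressed-label tissues these numbers were 15, 8 and 9. For cbx7 the log2 differences between control tissues, testis minus ovary, were 7.22 for cbx7b and -0.55 for cbx7a, which stood at 11.2, 12.5 and 14.4 FPKM in testis and 15.96, 16.7 and 16.6 in ovary. For kdm2b they were 3.04 for kdm2bb (6.86, 7.31 and 8.84 FPKM in testis, 0.870, 0.767 and 0.824 in ovary) and -0.72 for kdm2ba (15.0, 17.2 and 16.6 in testis and 26.2, 21.1 and 23.6 in ovary). For sirt5, ENSONIG00000006380 differed by 1.53 on the log2 scale (45.3, 40.1 and 41.9 in testis and 12.6, 13.9 and 12.5 FPKM in ovary) and ENSONIG00000009653 by -2.26 (5.71, 7.01 and 6.36 in testis and 27.4, 27.8 and 25.4 in ovary).

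For the class I deacetylase hdac1, the row ENSONIG00000007720 was higher in ovary (36.6, 38.0 and 38.0 FPKM in control testis, 67.4, 65.9 and 72.6 in control ovary, log2 difference -1.05) and ENSONIG00000008187, which overlaps tmem54a on the opposite strand, in testis (85.2, 89.6 and 84.0 in testis and 49.3, 45.3 and 48.7 in ovary, log2 difference 0.67). For the SWI/SNF core subunit smarcb1, smarcb1b was higher in ovary (27.3, 30.2 and 31.1 in testis and 69.2, 60.9 and 63.9 in ovary, log2 difference -1.31) and smarcb1a in testis (40.9, 41.3 and 35.4 in testis and 25.2, 26.7 and 28.1 in ovary, log2 difference 0.38). All 10 of these copies had no overlap between the control tissues, as had 88.0% of all genes. Among the further pairs that were opposite between suppressed-label tissues were kdm2a (log2 difference -0.22 for kdm2aa and 2.56 for kdm2ab) and smarce1 (log2 difference 1.38 for ENSONIG00000009004 and -0.41 for ENSONIG00000006293).

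**Figure D5:**
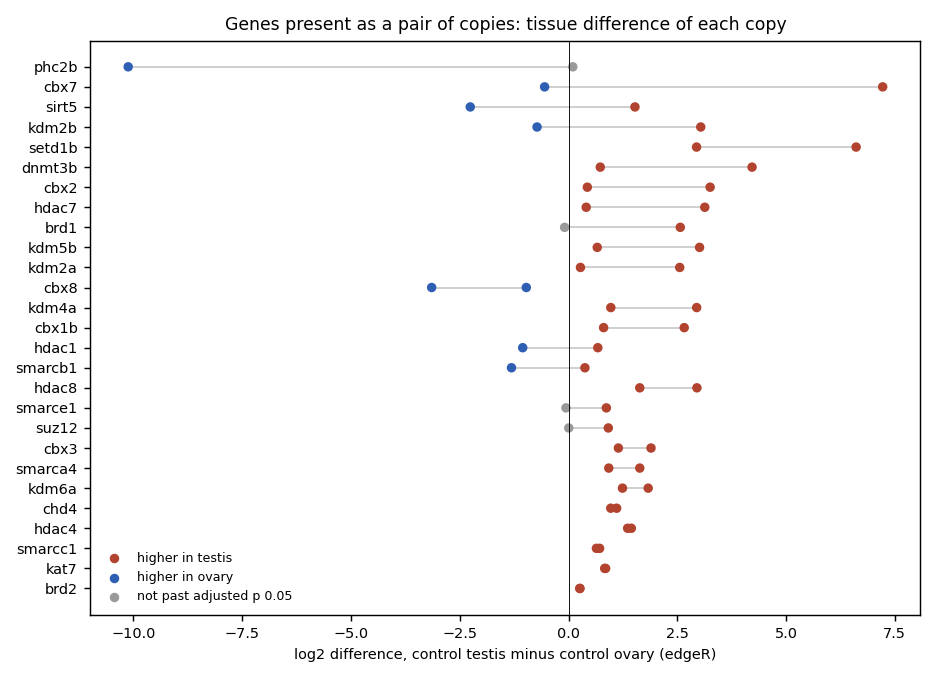
Each row is a reported pair of copies of a gene with both copies tested between control tissues, and each point a copy at its log2 difference, control testis minus control ovary (edgeR), joined by a line. Red was higher in testis, blue in ovary, and grey did not pass adjusted p 0.05. The lines of phc2b, cbx7, sirt5 and kdm2b are among the longest, and those of cbx7, sirt5, kdm2b, hdac1 and smarcb1 join a red and a blue point.

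Chromatin genes that the naming rule leaves out were checked from a list of subunits, further methyltransferases and readers, of which 119 were in the table. In testis 4 of 117 tested rose and 6 fell, and in ovary 11 of 103 rose and 13 fell, shares of 8.55% and 23.3%, below the 10.9% and 35.9% of all genes. Between control tissues 61 of 116 were higher in testis and 34 in ovary, where 44.1% and 42.3% of all genes were, at a median log2 difference of 0.35 against 0.73 for the members. The largest testis fall of the list was that of ash1l, an H3K36 methyltransferase, from 6.42 ± 1.54 FPKM (mean ± SD, n = 3) in control to 2.61 ± 0.734 in suppressed-label testis (log2 change -1.19, adjusted p = 0.016). In ovary the duplicates of the H3K9 methyltransferase ehmt1 moved apart: ehmt1a fell from 16.9 ± 0.325 to 11.4 ± 0.584 FPKM (log2 change -0.49, adjusted p = 0.000313) and ehmt1b rose from 4.32 ± 0.501 to 6.12 ± 0.143 (log2 change 0.57, adjusted p = 0.00131).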

How the data were processed

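Total RNA of 12 gonad samples was sequenced. The deposited table holds, per the file headers, an expected count and an FPKM value per gene and library, made by the authors for 22283 Ensembl genes, of which 17380 carry a symbol. The submitters' processing notes name HISAT and StringTie but no version, and neither they nor the labels give the genome build, annotation release, strand setting or counting options. Coordinates are those of the table. The expected counts are whole numbers and were used as deposited.

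Counts were tested with edgeR 4.0.16 in R 4.3.3 (TMM scaling, quasi-likelihood F test) on genes with at least 1 FPKM in at least 3 libraries of the comparison, with Benjamini-Hochberg adjustment over all genes tested and a threshold of 0.05 on the adjusted p. The SE of a log2 change is its size divided by the square root of F. The comparisons were suppressed label minus control in each tissue, testis minus ovary in each label, and the testis change minus the ovary change over 12 libraries. Alternatives were median-of-ratios and total-count scaling, no filter and the filterByExpr filter, DESeq2 1.42.0, limma 3.58.1 on log2(FPKM + 1) and log2(FPKM + 0.1), 12 libraries in 1 fit, the replicate number as a block, and leaving out each library. The fitting code was tested on simulated data. Transcript length was implied by the ratio of counts to FPKM and library total, for genes with at least 10 counts.

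The members, classes and lists were chosen with earlier results of these data known. Members named by rule were core enzymes, up to 20 called members of each label comparison, up to 12 in each direction of each tissue comparison, 10 of the tissue-by-label test, and copies called in opposite directions, 83 in all. Other members named fill their class or were chosen after their values were seen. Values per library are given for the control tissues or for the groups a result turns on. Some members are not reported here by name. Sequences of the members are not used here.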

Additional observations from a re-analysis of the deposited data

Results flagged for a closer look

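The change between labels differed between testis and ovary for 15 members by edgeR's quasi-likelihood test of the difference itself (testis change minus ovary change, log2 scale, adjusted over all genes). A difference below 0 means that the testis change was the more negative. It was -1.60 for the Polycomb reader cbx7a, -1.48 for the DNA methyltransferase dnmt3bb.1 (adjusted p = 0.0146), -1.28 for the H3K4 enzyme setd1ba and -0.94 for the lysine methyltransferase setd7. It was -0.83 for the longer phc2b row ENSONIG00000014763 (adjusted p = 0.02), -0.81 for kmt2d, -0.58 for sirt1 and -0.55 for kdm2aa (adjusted p = 0.0143). It was -0.40 for smarce1 ENSONIG00000006293 (adjusted p = 0.018) and -0.39 for suz12b (adjusted p = 0.0403).

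Above 0 were 2.22 for chd5, 0.66 for ezh2, 0.44 for cbx5 (adjusted p = 0.0333), 0.40 for PHC1 (adjusted p = 0.0458) and 0.39 for smarcd2 (adjusted p = 0.0498). The differences of 8 members passed whichever of the 12 libraries was left out: cbx7a, dnmt3bb.1, setd1ba, setd7, kmt2d, sirt1, chd5 and ezh2. For dnmt3bb.1 the testis values were 7.56, 8.12 and 8.63 FPKM in control and 4.76, 5.30 and 2.24 in suppressed-label libraries, a log2 change of -0.89 that did not pass alone (SE 0.26, adjusted p = 0.0644). Both dnmt3bb.1 and chd5 were under the floor of 1 FPKM in ovary and not tested there, and entered the test of the difference through their testis values. The marker sums that moved with the labels in testis stand beside that comparison, and their part in these differences was not tested.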

How the results depend on the processing

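The count of members called between labels depended on the fit in testis. It was 13 in the main fit (9.42% of members tested, against 10.9% of all genes). With DESeq2 it was 30 (21.7% against 20.1%), and with 12 libraries in 1 fit 27 (19.6% against 20.0%). When a library was left out it ran from 2 to 29 (1.46% to 21.0%, against 2.24% to 19.7%). In ovary it was 32 (26.0% against 35.9%), and 20 with 12 libraries in 1 fit (16.3% against 20.2%). It ran from 20 to 36 in ovary when a library was left out (16.3% to 29.5%, against 25.5% to 33.2%). The tissue-by-label test called 15 (10.6% against 15.5%). It called 23 with DESeq2 (16.3% against 21.2%) and 24 with limma on log2(FPKM + 1) (17.0% against 20.2%). When a library was left out it called 10 to 18, in each fit a smaller share than that of all genes. The tissue comparisons stayed within 1.5 times their counts (104 to 127 and 98 to 114 when a library was left out). Their shares then ran from 82.5% to 90.7% and from 79.7% to 84.6%, against 81.3% to 84.8% and 75.3% to 84.9% of all genes. The cause of these shifts was not tested.

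The labels number the replicates of each group alike without saying that a number pairs samples. Same-numbered libraries correlated in their deviations from the group means at -0.29 to -0.011 between testis labels, -0.10 to -0.015 between ovary labels, 0.0062 to 0.072 between control tissues and -0.053 to 0.11 between suppressed-label tissues, so not every library went best with its own number. With the replicate number as a block the edgeR counts were 0 in testis (27 at an unadjusted p under 0.05), where 1.92% of all genes were called. They were 21 in ovary (17.1% of members against 27.5% of all genes) and 124 and 112 between tissues (87.9% against 85.1% and 82.4% against 79.5%). The tissue-by-label test then called 12 (8.51% against 11.6%).

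Leaving out a testis library also removes from a fit the genes that only testis carries to the floor, by its own construction, and the tissue difference then turned sign at least once for some members with small differences. Over the fits that left out a library the log2 difference ran, between control tissues, for setd4 from -0.49 to 0.018, brd1b from -0.25 to 0.26, kat5b from -0.38 to 0.12, smarce1 ENSONIG00000006293 from -0.16 to 0.29, kdm4c from -0.38 to 0.034 and smarcad1b from -0.51 to 0.063, and between suppressed-label tissues for setd5 from -0.57 to 0.056, smarcd1 from -0.50 to 0.022, prmt9 from -0.45 to 0.020, HDAC2 from -0.52 to 0.0048 and kdm2aa from -0.36 to 0.14. With limma on log2(FPKM + 1) the tissue-by-label value of SETD1B ENSONIG00000010832 turned to -0.90. Median-of-ratios and total-count scaling turned no sign of a called member in any of the 5 comparisons. Of the members not called, library totals turned the sign of 18 in testis and 17 in ovary, and median of ratios that of 1 in each. The floor left out members under 1 FPKM. With no filter all 146 were tested, and 3 rose and 8 fell in testis and 16 rose and 15 fell in ovary. These were shares of 7.53% and 21.2%, against 7.50% and 24.3% of all genes. Depth limits SETD1B ENSONIG00000010832 in ovary, at 30 counts over the control group.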
